A study of Sus scrofa with 12 samples.

Results

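Cholesterol synthesis and uptake genes were followed across 12 pig ovaries, from the enzymes that build the sterol to the proteins that take it up, store it and move it towards mitochondria. A member was a row of the deposited gene table whose gene name equalled a listed symbol, taken at the row with the highest mean count where a symbol had several. Of 35 listed symbols, 22 had a row of their own among the 29150 loci of the table. These were 11 synthesis genes, 9 uptake and handling genes and 2 regulators, and all 22 passed the expression filter that left 20421 loci for testing. A further 4 symbols stood under a bare Ensembl identifier and 7 in a locus joined with another gene, so their values are given apart. LSS and HSD17B7P2 were not analysed here.

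The left ovaries of gilts, female pigs (Sus scrofa) before their first litter, of a New French Yorkshire line were used, and estrus was watched for from 165 days of age. The ES group held 6 gilts recorded in 2 consecutive estrus cycles and slaughtered at the third estrus. The NES group held 6 full sisters in which no estrus was seen. Each library was made from the total RNA of a whole ovary, without a treatment or a genetic change, so follicles, luteal tissue, stroma, vessels and immune cells all contribute to each value.

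Ovarian cells that make steroids need cholesterol as the raw material. They can build it from acetyl units through mevalonate, squalene and lanosterol, or take it up from lipoproteins through receptors such as SCARB1. Cholesterol freed in lysosomes leaves them through NPC2 and NPC1, is stored as esters by SOAT1, and is carried into mitochondria by STAR, where CYP11A1 cuts its side chain to form pregnenolone. Supply is set by SREBP transcription factors, which SCAP escorts out of the endoplasmic reticulum when sterols are scarce and INSIG proteins hold back when they are plentiful.

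The libraries held 58140547 to 68961955 counts, and no member was at 0 in any of them. Levels below are counts scaled to library size (CPM) with edgeR's TMM factors, which were 0.891 in ES1 and up to 1.08 in NES2. Markers of several cell types differed between ovaries of the same group. The 9 measured of 10 macrophage markers summed to 1064 CPM in ES3, to 73.6 to 115 CPM in the other ES ovaries and to 56.5 to 149 CPM in the NES ovaries. The 7 measured of 8 granulosa markers summed to 128 CPM in ES3 and up to 1832 CPM in ES6, with 665 to 2197 CPM in NES, and the 5 theca markers to 64.1 CPM in ES3 and up to 875 CPM in ES1, with 515 to 956 CPM in NES. The 6 measured of 9 luteal and steroidogenic markers, which include STAR, CYP11A1 and SCARB1 themselves, summed to 482 to 3986 CPM in ES, highest in ES1, and to 386 to 602 CPM in NES. No marker of these 4 lists was at 0 in any library. Markers also differed between the groups. The theca markers HHIP (log2 difference -2.37, adjusted p = 0.0358), GLI1 (-1.94, adjusted p = 0.0337) and PTCH1 (-1.86, adjusted p = 0.0387) and the granulosa marker IHH (-3.01, adjusted p = 0.0420) were called lower in ES by edgeR's quasi-likelihood test. That is 3 of 5 theca and 1 of 7 granulosa markers, where 0.793% of all loci were called lower. In the same lists, 1 of 5 theca and 2 of 7 granulosa markers had a positive log2 difference. All 6 luteal, all 8 tested macrophage, all 5 endothelial and all 5 smooth muscle markers had a positive log2 difference, and none of those was called. The same held for all 5 tested lymphocyte, all 5 tested epithelial and the 1 tested red cell marker. Of the 3 tested oocyte markers 0 had a positive difference, and of all loci 56.2% had one.

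The comparison of ES with NES asks whether ovaries at estrus carry more RNA for supplying cholesterol. None of the 22 genes was called by edgeR's quasi-likelihood test, with p-values adjusted over all loci by Benjamini-Hochberg, while 0.945% of loci were. Adjusted p ran between 0.274 for SCARB1 and 0.988 for PMVK. At an unadjusted p under 0.05 there were 3 of 22 members, which is 13.6%, against 16.3% of all loci. DESeq2 called 0 members where it called 5.22% of loci, and limma on log2(FPKM + 0.5) called 0 members where it called 1.65%. No member had ES and NES ovaries that were fully separated, as 1.42% of loci did. In a whole ovary, fewer cells of a type and less RNA per cell cannot be told apart.

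The log2 difference, ES over NES, was positive for 21 of 22 members and for 56.2% of all loci. Its median was 0.24 over the 11 synthesis genes, 0.71 over the 9 uptake and handling genes, 0.29 over the 2 regulators and 0.043 over all loci. Much of this lay in 1 ovary. Without ES1 the medians were 0.037, 0.19 and 0.16, and 15 of 22 differences were positive. Without ES1 and ES6 together, a setting chosen after the data were seen, the medians were -0.022, 0.14 and 0.036, and 13 of 22 were positive. The mean of log2 CPM, which weights every ovary equally, gave medians of 0.18, 0.42 and 0.28 with 20 of 22 positive, and 0.021 over all loci. With limma on log2(FPKM + 0.5) the medians were 0.077 for synthesis, with 8 of 11 positive, 0.31 for uptake and handling and 0.17 for the regulators, against -0.051 over all loci, and 18 of 22 members were positive where 40.7% of loci were. The part of the cell type markers that also differed between ES and NES was not tested.

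**Figure D1:**
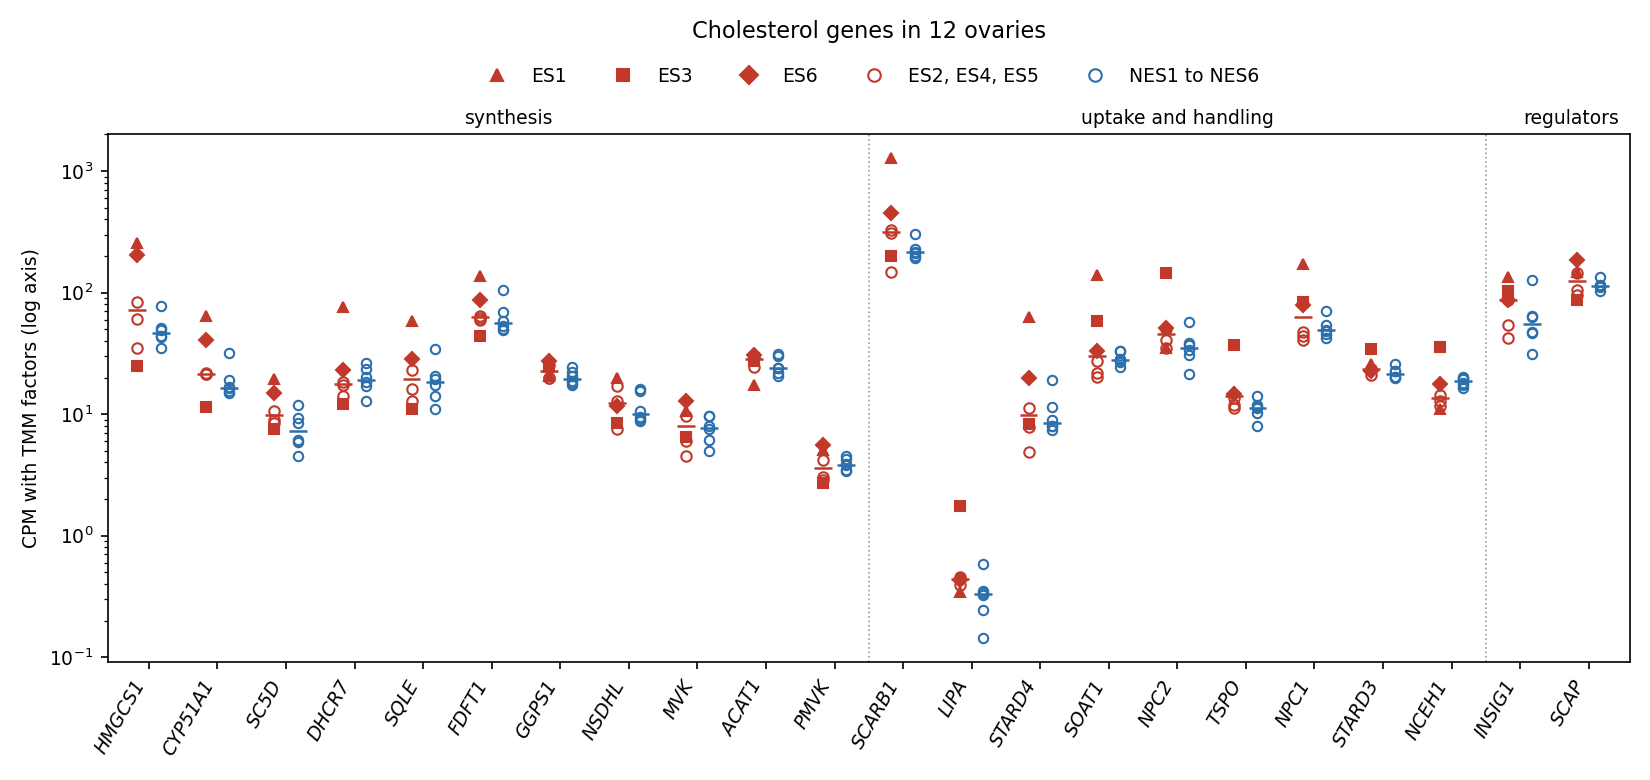
Level of each of the 22 genes in every ovary, in CPM on a log axis, with ES in red to the left of NES in blue and a short bar at each group's median. ES1, ES3 and ES6 have filled symbols of their own. HMGCS1 spanned 24.7 to 257 CPM in ES and 34.7 to 77.9 CPM in NES, and no gene had groups that were fully separated.

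Among the synthesis genes the enzyme of the step before mevalonate stood out by its spread. HMGCS1 (chromosome 16, 27935689 to 27957270), which joins acetyl units into HMG-CoA, had a lowest, median and highest level of 24.7, 72.3 and 257 CPM in ES and 34.7, 46.5 and 77.9 CPM in NES. ES1, ES2 and ES6 lay above every NES ovary, and ES3 lay below all of them. Its log2 difference was 1.15 ± 0.51 (SE; adjusted p = 0.287), and 0.69 without ES1 (unadjusted p = 0.155).

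SC5D (chromosome 9, 48357123 to 48373836), a late sterol desaturase, had 7.59, 9.80 and 19.5 CPM as lowest, median and highest level in ES and 4.55, 7.30 and 11.8 CPM in NES (log2 difference 0.60, adjusted p = 0.310). ES1 and ES6 exceeded every NES ovary. CYP51A1 (chromosome 9, 72054942 to 72079598), which demethylates lanosterol, had 11.5, 21.5 and 64.1 CPM in ES and 14.9, 16.5 and 32.1 CPM in NES (log2 difference 0.66, adjusted p = 0.390). ES1 and ES6 were again above all NES ovaries, NES1 was the highest of its group, and ES3 was the lowest of the 12.

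DHCR7 (chromosome 2, 2357714 to 2394851), which catalyses a final reduction to cholesterol, had 12.0, 17.7 and 76.4 CPM in ES and 12.7, 19.3 and 26.3 CPM in NES. The ES median was below the NES median, and ES1 alone lay above the NES range. Its log2 difference of 0.45 (adjusted p = 0.627) became -0.22 without ES1. Another DHCR7 locus on the same strand, with 23.8% of its mean count, had a log2 difference of 0.042 (adjusted p = 0.928). GGPS1 (chromosome 14, 55907893 to 55923989) makes the geranylgeranyl group used on proteins and lies on a branch away from sterols. It kept a narrow range of 19.7, 22.4 and 27.4 CPM in ES and 17.3, 19.6 and 24.4 CPM in NES (log2 difference 0.18, adjusted p = 0.510).

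The other 6 synthesis genes had log2 differences between 0.0095 and 0.37, with adjusted p between 0.691 and 0.988. They were the squalene epoxidase SQLE (0.37), the squalene synthase FDFT1 (0.24), the sterol demethylation enzyme NSDHL (0.15), the mevalonate kinase MVK (0.13), the mitochondrial thiolase ACAT1 (0.069) and the phosphomevalonate kinase PMVK (0.0095). SQLE and FDFT1 were highest in ES1, at 58.9 and 138 CPM, against at most 34.2 and 104 CPM in NES. Without ES1 the log2 differences of SQLE, FDFT1 and NSDHL were -0.094, -0.026 and -0.018. ACAT1, which also serves the breakdown of ketones and isoleucine, was lowest of all 12 ovaries in ES1, at 17.4 CPM.

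Uptake and handling genes had the larger median difference, in part from ES1 and in part from ES3. SCARB1 (chromosome 14, 28301294 to 28393555), the receptor that takes cholesteryl esters from high density lipoprotein, had 148, 318 and 1279 CPM as lowest, median and highest level in ES and 193, 214 and 304 CPM in NES. ES1, ES2, ES5 and ES6 lay above every NES ovary and ES4 lay below all of them. The log2 difference was 1.01 ± 0.43 (SE), a 2.01-fold difference with an adjusted p of 0.274. Without ES1 it was 0.34 (unadjusted p = 0.186). A locus of the same name on the opposite strand, with 16.7% of its mean count, had a log2 difference of 0.51 (adjusted p = 0.448).

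STARD4 (chromosome 2, 116234587 to 116257041), a cytosolic sterol carrier, had 4.90, 9.78 and 62.7 CPM in ES and 7.36, 8.48 and 19.2 CPM in NES. SOAT1 (chromosome 9, 121044921 to 121113696), which esterifies cholesterol for storage, had 20.1, 30.2 and 139 CPM in ES and 24.4, 28.0 and 33.2 CPM in NES. ES1 was the highest for both genes and ES4 the lowest for STARD4. For SOAT1, ES1 and ES3 exceeded the NES range while ES2 and ES4 lay below it. The log2 differences were 0.87 for STARD4 (adjusted p = 0.468) and 0.79 for SOAT1 (adjusted p = 0.382), and without ES1 they were -0.011 and 0.15. NPC1, the membrane protein that exports cholesterol from lysosomes, was likewise highest in ES1, at 172 CPM, and had a log2 difference of 0.59 (adjusted p = 0.389; 0.18 without ES1).

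NPC2 (chromosome 7, 97730516 to 97740331), the soluble carrier that hands lysosomal cholesterol to NPC1, had 35.1, 45.3 and 144 CPM in ES and 21.6, 35.2 and 56.8 CPM in NES. TSPO (chromosome 5, 5723190 to 5735131), a cholesterol-binding protein of the outer mitochondrial membrane, had 11.2, 14.1 and 36.8 CPM in ES and 7.94, 11.3 and 14.1 CPM in NES. ES3 was the highest ovary for both genes. The log2 differences were 0.71 for NPC2 (adjusted p = 0.345) and 0.63 for TSPO (adjusted p = 0.286), and without ES3 they were 0.22 and 0.26. NCEH1, which hydrolyses stored esters, was also highest in ES3, at 35.5 CPM, while ES1, ES2, ES4 and ES5 lay below all NES ovaries. Its log2 difference was -0.11 (adjusted p = 0.870), and -0.46 without ES3 (unadjusted p = 0.00425). Over 24 alternative fits it was called in 0, with a lowest adjusted p of 0.119. STARD3, which tethers late endosomes and binds cholesterol, was highest in ES3 as well, at 34.5 CPM (log2 difference 0.20, adjusted p = 0.466; 0.088 without ES3).

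ES3 was the ovary in which the 9 measured macrophage markers summed to 1064 CPM, against at most 149 CPM elsewhere. Their part in the ES3 values of NPC2, TSPO, NCEH1 and STARD3 was not tested. The row named LIPA (chromosome 14, 101134933 to 101168006) lies on the plus strand, opposite a joined locus of LIPA and CH25H on the minus strand, and averaged 30.2 counts per library. Its level therefore cannot be taken as that of the mRNA for lysosomal acid lipase. It had 0.346, 0.436 and 1.75 CPM in ES and 0.143, 0.329 and 0.589 CPM in NES (log2 difference 0.94, adjusted p = 0.337; 0.31 without ES3), and ES3 was again the highest. Without this row the uptake and handling median was 0.67.

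Of the regulators, INSIG1 (chromosome 18, 2885494 to 2898971), which retains SCAP and is itself a target of SREBP, had 42.3, 87.0 and 135 CPM in ES and 31.0, 55.1 and 126 CPM in NES. The ranges overlapped almost fully, with ES1 and NES1 at their upper ends (log2 difference 0.43, adjusted p = 0.566). SCAP (chromosome 13, 30252908 to 30320625) had 86.2, 125 and 185 CPM in ES and 103, 113 and 134 CPM in NES (log2 difference 0.14, adjusted p = 0.732). ES1, ES4 and ES6 lay above the NES range, and ES2 and ES3 below it.

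Levels between genes can be compared only per length, for which the authors' FPKM values serve. In ES, NPC2 averaged 31.0 ± 22.3 FPKM, TSPO 15.9 ± 9.11, SCAP 13.8 ± 4.09, SCARB1 13.6 ± 11.5 and HMGCS1 12.7 ± 10.5 (SD, n = 6). In NES the same genes averaged 20.1 ± 6.53, 11.0 ± 2.21, 13.4 ± 1.40, 7.44 ± 1.46 and 6.25 ± 1.94 FPKM. The other synthesis genes lay lower, from 1.53 FPKM for NSDHL to 4.39 FPKM for FDFT1 in ES and from 1.49 to 4.02 FPKM for the same genes in NES. CYP51A1, DHCR7, FDFT1 and GGPS1 overlap a locus on the opposite strand (AKAP9, NADSYN1, CTSB and ARID4B) that held 485%, 116%, 596% and 944% of their mean counts. For SCAP (PTPN23) and NPC1 (RMC1) the share was 45.4% and 38.2%. The libraries kept the strand, but the strand setting of the counting is not given in the sources used here, so reads of such pairs may be shared.

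The ovaries of a group were far from uniform. The SD of log2 CPM was larger in ES than in NES for 21 of 22 members, against 74.4% of all loci, with a median SD of 0.63 in ES and 0.37 in NES (0.41 and 0.27 over all loci). ES1 was the highest of the 12 ovaries for 12 of 22 members, or 54.5%, and for 13.5% of all loci. NES1 was the highest NES ovary for 14 of 22 members, or 63.6%, and for 25.0% of all loci, including 9 of 11 synthesis genes. ES3 was the lowest of the 12 for 5 of 11 synthesis genes, or 45.5%, and for 18.9% of all loci, while it was the highest ES ovary for 5 of 9 uptake and handling genes, or 55.6%, and for 24.0% of all loci.

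Taking each gene relative to its NES mean, the median synthesis gene stood at a log2 value of 1.16 in ES1, 0.25 in ES2, -0.48 in ES3, 0.011 in ES4, -0.051 in ES5 and 0.53 in ES6. Among NES ovaries the same median was 0.52 in NES1, between -0.14 and 0.036 in NES2 to NES5, and -0.35 in NES6. NES1 was therefore level with ES6. The 8 uptake and handling genes without the LIPA row had medians of 1.11 in ES1, 0.83 in ES3 and 0.49 in ES6, between -0.26 and 0.021 in ES2, ES4 and ES5, and between -0.10 and 0.15 in the 6 NES ovaries. The groups thus parted in ES3, where the uptake median was high and the synthesis median low. That ovary also had the lowest granulosa and theca marker sums and the highest macrophage sum. The part of these in the values was not tested.

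**Figure D2:**
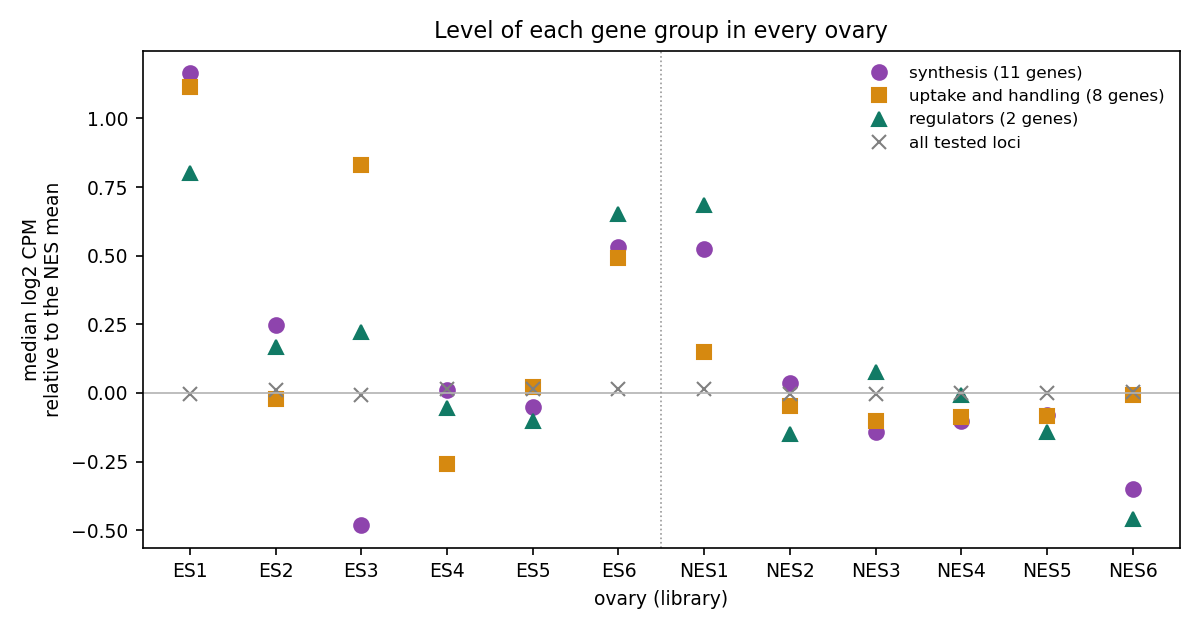
Median log2 CPM of each gene group in every ovary, relative to the mean of the 6 NES ovaries, with the median over all tested loci as crosses. ES1 stands high for synthesis (1.16), uptake and handling (1.11) and the regulators (0.80), while in ES3 synthesis lies at -0.48 and uptake and handling at 0.83.

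Across the 12 ovaries, with each group centred on its own mean, pairs of synthesis genes had a median Pearson r of 0.64 over 55 pairs, and pairs of uptake and handling genes without the LIPA row 0.39 over 28 pairs. Pairs of 1 synthesis and 1 uptake gene had a median of 0.041 over 88 pairs. These coefficients are a description, since all pairs share the same 12 libraries and their composition. HMGCS1 had a median r of 0.81 with the other 10 synthesis genes and of -0.014 with all loci. NPC2 had a median r of -0.50 with the synthesis genes and 0.13 with the other uptake genes. SCARB1 resembled the synthesis genes, with a median r of 0.75, more than its own list, with a median of -0.072.

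STAR (chromosome 15, 48377513 to 48388326) had 11.6, 266 and 728 CPM as lowest, median and highest level in ES and 27.1, 44.2 and 63.8 CPM in NES. CYP11A1 (chromosome 7, 59174273 to 59188720) had 49.0, 169 and 1515 CPM in ES and 37.0, 46.4 and 88.7 CPM in NES. ES6 and ES1 were highest for STAR, and ES3 was the lowest of all 12. For CYP11A1, ES1 stood far above the next ovary, ES6, which had 269 CPM. STAR and CYP11A1 ordered the ES ovaries differently, with r = 0.47 (exact permutation p = 0.346) and rho = 0.60 (p = 0.242) over the 6 ES ovaries.

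To ask whether cholesterol genes varied with STAR among ovaries of the same group, log2 CPM of STAR was added to the edgeR model beside the group. The slope of HMGCS1 was 0.54 ± 0.083 per log2 unit of STAR (SE; adjusted p = 0.00882) and that of CYP51A1 0.34 ± 0.077 (adjusted p = 0.0292). These were the 2 of 22 members, both synthesis genes, that passed with a positive slope, and none passed with a negative one. Over all loci 4.68% passed, 1.69% with a positive and 2.99% with a negative slope. At an unadjusted p under 0.05 there were 15 of 22 members, or 68.2%, against 19.5% of all loci.

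Slopes on STAR were positive for 9 of 11 synthesis genes, with a median of 0.19, and for 4 of 9 uptake and handling genes, with a median of -0.073. The median over all loci was 0.0028. Leaving out the LIPA row, the uptake and handling median was 0.010, with 4 of 8 positive. Without ES3 the medians were 0.28 for synthesis and 0.091 for uptake and handling, with 10 of 11 and 7 of 9 positive. Over all loci that fit gave 0.0091. SQLE (0.34, adjusted p = 0.0605), DHCR7 (0.31, adjusted p = 0.123), FDFT1 (0.21, adjusted p = 0.0993) and PMVK (0.17, adjusted p = 0.0703) had positive slopes that did not pass. Among uptake genes SCARB1 (0.37, adjusted p = 0.0531) and STARD4 (0.41, adjusted p = 0.0953) had positive slopes, and NPC2 (-0.27, adjusted p = 0.0563), NCEH1 (-0.19, adjusted p = 0.0626), TSPO (-0.19, adjusted p = 0.101) and the LIPA row (-0.33, adjusted p = 0.0862) negative ones. GGPS1 (-0.010) and ACAT1 (-0.046) were the only synthesis genes with negative slopes.

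These calls did not hold without ES3, the ovary with the least STAR. In that fit the slope of HMGCS1 was 0.73 (adjusted p = 0.0605) and that of CYP51A1 0.38 (adjusted p = 0.254). Only 0.0392% of loci passed without it, and no member. The slopes of NPC2, NCEH1 and TSPO without ES3 were -0.015, 0.028 and 0.091. Without ES4, on the other hand, 6 members passed, with NPC2 (-0.31), NCEH1 (-0.22), TSPO (-0.23) and the LIPA row (-0.37) added to HMGCS1 and CYP51A1, while 7.02% of loci passed. Without ES6, 5 members passed where 5.24% of loci did, namely HMGCS1, CYP51A1, NPC2 (-0.33), NCEH1 (-0.27) and SCARB1 (0.40). Without ES1, where 4.96% of loci passed, HMGCS1 was the 1 member that did (0.47, adjusted p = 0.0139), and CYP51A1 had 0.26 (adjusted p = 0.0579). Over 17 alternatives the HMGCS1 slope lay between 0.45 and 0.73 and its adjusted p between 0.00702 and 0.151, with 15 under the threshold. The CYP51A1 slope lay between 0.24 and 0.38 and its adjusted p between 0.0294 and 0.254, with 12 under it.

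Correlations of log2 CPM were computed within each group, where with 6 ovaries the smallest exact permutation p is 0.00139. HMGCS1 and STAR had r = 0.925 (two-sided exact permutation p = 0.00833) and rho = 0.943 (p = 0.0167) in ES, with r = 0.974 without ES3 and ES4. In NES they had r = 0.441 (exact permutation p = 0.406) and rho = 0.429 (p = 0.419), with r = 0.742 without NES4 and NES5. Over all 12 ovaries, whose groups overlap in STAR, r was 0.893 (permutation p = 1.90e-04) and rho 0.846 (p = 0.00106), with r = 0.758 without ES1 and ES6. These permutations did not keep the groups apart, so differences between ES and NES enter the 12-ovary values. The relation was computed for every tested locus, and after Benjamini-Hochberg adjustment over them the p-values of r for HMGCS1 were 0.425 in ES, 0.993 in NES and 0.144 over 12 ovaries. No locus at all passed that adjustment for STAR or CYP11A1 in ES, in NES or over 12 ovaries, so it does not set the members apart.

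**Figure D3:**
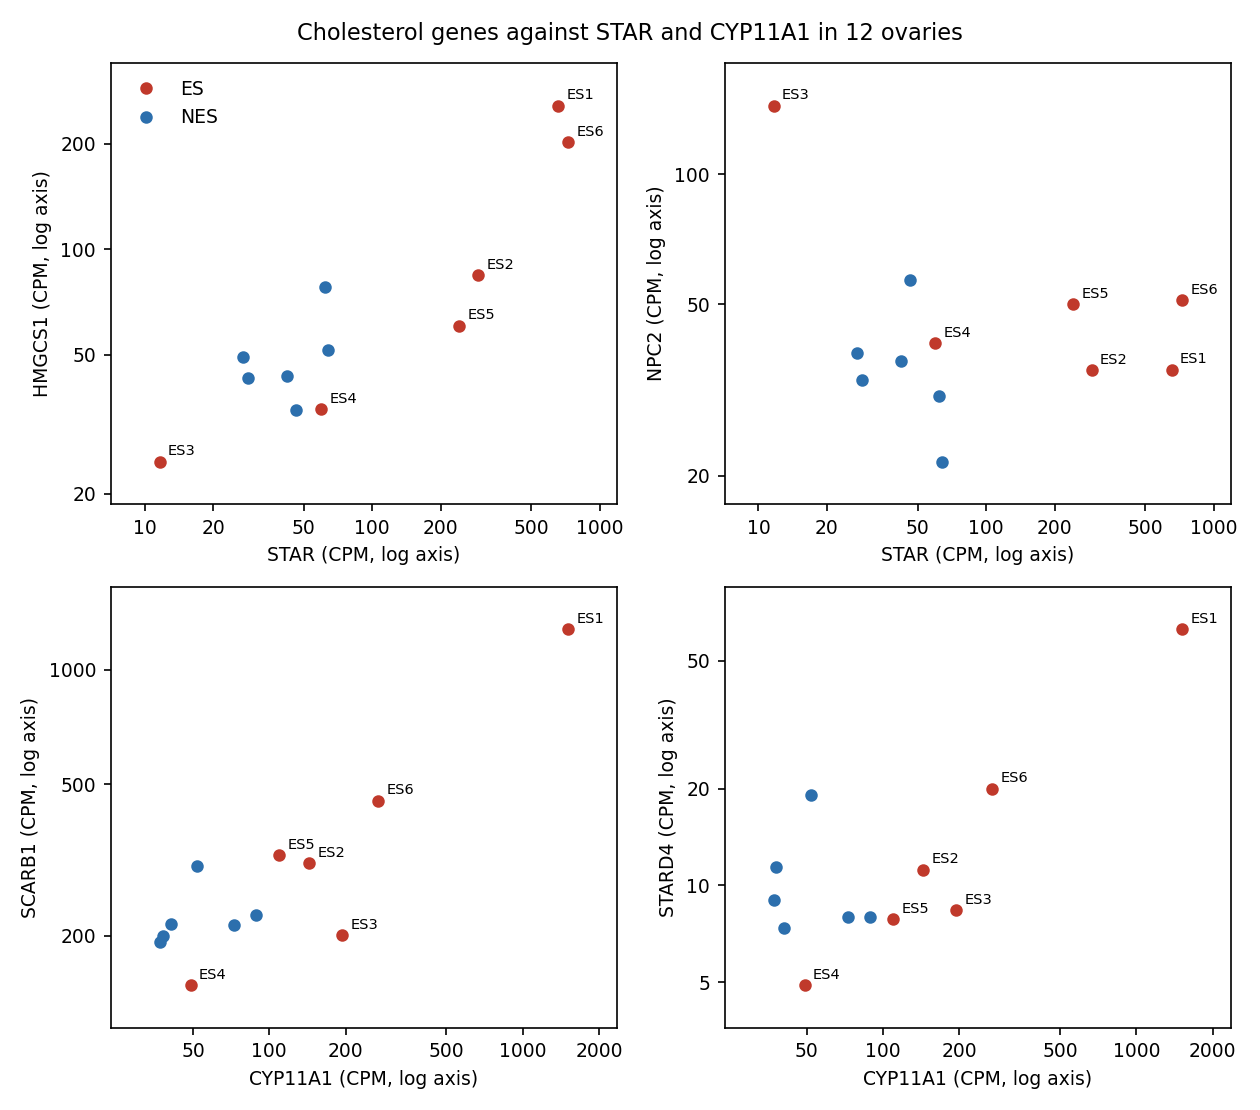
Levels of HMGCS1 and NPC2 against STAR and of SCARB1 and STARD4 against CYP11A1, 1 point an ovary, in CPM on log axes, with ES in red and NES in blue. HMGCS1 follows STAR within ES between ES3 at 24.7 CPM and ES1 at 257 CPM, NPC2 is highest in ES3 at 144 CPM, and the lower panels stretch along CYP11A1 mainly through ES1.

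With CYP11A1 in place of STAR, other members passed. The slope of SCARB1 was 0.56 ± 0.081 per log2 unit of CYP11A1 (SE; adjusted p = 0.0132), that of SOAT1 0.53 ± 0.088 (adjusted p = 0.0293) and that of STARD4 0.69 ± 0.12 (adjusted p = 0.0312). These were 3 of 22 members, or 3 of 9 uptake and handling genes, where 0.509% of all loci passed and 0.48% with a positive slope. NPC1 had a slope of 0.39 (adjusted p = 0.0547). At an unadjusted p under 0.05 there were 10 of 22 members, or 45.5%, against 12.9% of loci. The slopes were positive for 9 of 11 synthesis genes, with a median of 0.24, and none of those passed. HMGCS1 had 0.55 (adjusted p = 0.195), DHCR7 0.42 (adjusted p = 0.131) and SQLE 0.40 (adjusted p = 0.209). These slopes pool ES and NES. The median r of synthesis genes with CYP11A1 was 0.71 in ES, with 9 of 11 positive, and -0.12 in NES, with 4 of 11 positive, a difference that was not tested. In ES and NES, r was 0.742 and -0.249 for HMGCS1, 0.845 and -0.710 for DHCR7, and 0.851 and -0.402 for SQLE, with exact permutation p between 0.0375 and 0.654.

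These calls did not hold without ES1, the ovary with the most CYP11A1. In that fit the slopes were 0.41 for SCARB1 (adjusted p = 0.616), 0.34 for SOAT1 (adjusted p = 0.749) and 0.52 for STARD4 (adjusted p = 0.728), and none of all tested loci passed. The call of SOAT1 was also lost without ES5, NES2 or NES3 (adjusted p between 0.0507 and 0.0803), and that of STARD4 without ES2, ES4, ES5, NES2, NES3 or NES4 (adjusted p between 0.0530 and 0.0908). Over 17 alternatives SCARB1 was called in 15 (adjusted p between 0.00156 and 0.851), SOAT1 in 12 (0.00830 to 0.819) and STARD4 in 8 (0.0209 to 0.871). The summed luteal and steroidogenic markers were also highest in ES1, at 3986 CPM, and at most 1680 CPM in any other ovary. That list shares SCARB1, STAR and CYP11A1 with the genes compared, and its part in the slopes was not tested.

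In correlations with CYP11A1, SCARB1 had r = 0.928 (exact permutation p = 0.0194) and rho = 0.771 (p = 0.103) in ES, and r = 0.286 (exact permutation p = 0.651) and rho = 0.714 (p = 0.136) in NES. Without ES1 and ES4, the 2 ES ovaries farthest from the median, r was 0.247, so the relation in ES rests on them. STARD4 had r = 0.970 (exact permutation p = 0.00417) and rho = 0.943 (p = 0.0167) in ES, with r = 0.776 without ES1 and ES4. In NES its r was -0.194 (exact permutation p = 0.769) and its rho -0.257 (p = 0.658). The Benjamini-Hochberg adjusted p of r over all loci was 0.532 for SCARB1 and 0.519 for STARD4 in ES.

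STAR and CYP11A1 were also put in 1 model, an addition made after the data were seen. Beside CYP11A1, the slope on STAR was 0.45 for HMGCS1 (adjusted p = 0.00767), 0.21 for SCARB1 (adjusted p = 0.0334), -0.32 for NPC2 (adjusted p = 0.0246) and -0.25 for TSPO (adjusted p = 0.0271), the 4 members that passed where 6.75% of loci did. Beside STAR, the slope on CYP11A1 was 0.44 for SCARB1 and 0.62 for SOAT1 (adjusted p = 0.0152 for both), where 0.475% of loci passed. STARD4 had 0.57 (adjusted p = 0.0761) and HMGCS1 0.28 (adjusted p = 0.184). SCARB1 was thus the gene that passed on both in this model.

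**Figure D4:**
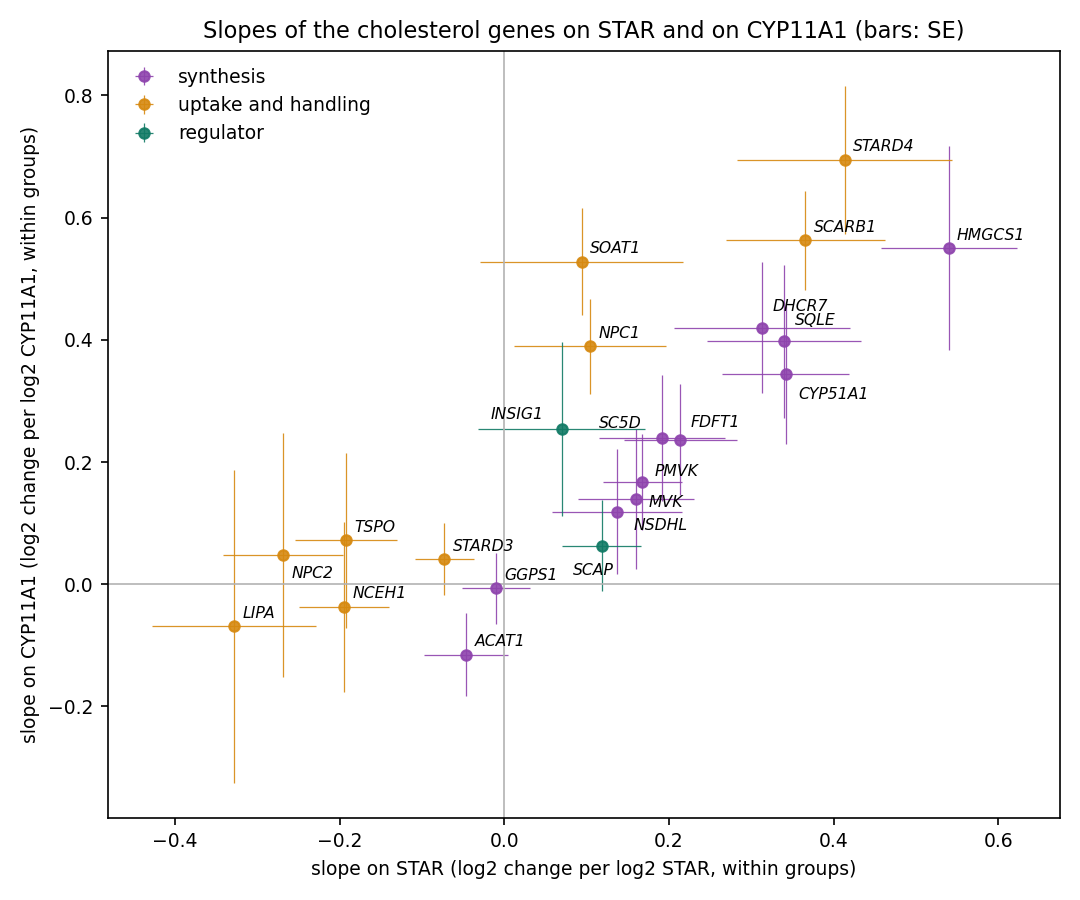
Slope of each of the 22 genes on STAR (horizontal) and on CYP11A1 (vertical), both in log2 units per log2 unit within groups, with bars of 1 SE. HMGCS1 lies farthest right at 0.54 and STARD4 highest at 0.69, SOAT1 lies high at 0.53 with a slope of 0.094 on STAR, and NPC2 and the LIPA row lie to the left at -0.27 and -0.33.

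Other genes of cholesterol metabolism, 40 listed and 29 of them tested at a row of their own, were read in the same fits. Of the 29, 21 had a positive log2 difference between ES and NES, which is 72.4% against 56.2% of all loci, with a median of 0.12 against 0.043. None was called after adjustment in edgeR's quasi-likelihood test, where 0.945% of loci were. At an unadjusted p under 0.05 there were 6, or 20.7%, against 16.3% of all loci.

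The smallest p among these genes belonged to a lower value in ES. OSBPL8, a lipid transfer protein at contacts between endoplasmic reticulum and plasma membrane, had 85.8, 100.4 and 114 CPM in ES and 120.5, 135 and 173 CPM in NES. All 6 ES ovaries lay below every NES ovary, with a log2 difference of -0.47 ± 0.11 (SE; adjusted p = 0.0616). DESeq2 and limma on log2(FPKM + 0.5) called it, at log2 differences of -0.47 and -0.48. OSBPL2, of the same family, was higher in all 6 ES ovaries than in any NES ovary (log2 difference 0.36, adjusted p = 0.134). These were 2 of 29 genes with fully separated groups, 1 of them higher in ES, where 1.42% of all loci were separated and 0.509% with ES higher. The sterol carrier GRAMD1A (0.50, adjusted p = 0.145) and the sterol exporter ABCG1 (1.15, adjusted p = 0.262) were each above the NES range in 5 of 6 ES ovaries, and ABCG1 had 0.63 without ES3.

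On STAR, 4 of these 29 genes passed with a positive slope and 1 with a negative one, where 1.69% and 2.99% of all loci did. The positive ones were the sterol carrier GRAMD1B (0.44, adjusted p = 0.0235), ERG28 (0.33, adjusted p = 0.0485), the nuclear receptor NR5A1, which drives steroidogenic genes (0.27, adjusted p = 0.00800), and the hormone-sensitive lipase LIPE (0.18, adjusted p = 0.0393). The negative one was the cholesterol exporter ABCA1 (-0.32, adjusted p = 0.0204), which stood at 721 CPM in ES3 and at most 290.3 CPM elsewhere. None of the 29 passed without ES3, in a fit where 0.0392% of loci did. On CYP11A1, HSD17B7, an enzyme of sterol synthesis, was the only one of the 29 that passed (0.45, adjusted p = 0.0392), where 0.509% of loci did. Without ES1, no locus passed.

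Listed symbols without a row of their own gave values that belong to a mixed or differently named locus. IDI1, the isomerase of isopentenyl diphosphate, found through a table of gene names, had 3.79, 22.0 and 51.6 CPM in ES and 6.90, 13.0 and 25.5 CPM in NES (log2 difference 0.77, adjusted p = 0.494) and a slope on STAR of 0.59 (adjusted p = 0.0102). Its opposite strand holds WDR37, with 164% of its mean count. The locus of MSMO1, a sterol methyl oxidase, joined with KLHL2, had 21.3, 33.0 and 123 CPM in ES and 21.2, 26.6 and 44.6 CPM in NES (0.92, adjusted p = 0.279; slope on STAR 0.37, adjusted p = 0.0265). That of the transcription factor SREBF2, joined with MIR33A, had 103, 263 and 390.0 CPM in ES and 192, 235 and 283 CPM in NES (0.12, adjusted p = 0.855; slope 0.24, adjusted p = 0.0303). ES1 was the highest ovary for all 3 loci, and ES3 the lowest for IDI1 and SREBF2. Over all loci 1.69% passed on STAR with a positive slope. The slopes of all 3 lost their call without ES3 (adjusted p = 0.142 for IDI1, 0.132 for MSMO1 and 0.501 for SREBF2). The remaining loci, FDPS, MVD, ACAT2, TM7SF2, EBP, SREBF1, INSIG2 and MYLIP, had log2 differences between -0.032 and 0.44 with adjusted p between 0.355 and 1.00. Their slopes on STAR lay between -0.098 and 0.21, with adjusted p between 0.190 and 0.960, and none passed.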

How the data were processed

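Total RNA of 12 ovaries, 6 ES and 6 NES, was measured, with the title of each giving its group and number. Ribosomal RNA was removed and strand-specific dUTP libraries were made, per the labels' protocols. Tools named in the submitters' processing notes are HISAT2, TopHat, cutadapt and FastQC, with the build Sscrofa11.1. For the counting program and its strand setting, nothing is given in the sources used here. For each of 29150 loci the authors deposited whole read counts and FPKM per library, per the file headers. The deposited FPKM values are scaled to length and library size by the authors. All per-sample columns were used, and no pair of libraries held identical counts.

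Counts were tested with edgeR's quasi-likelihood test (TMM factors, legacy option) on the 20421 loci whose mean FPKM reached 0.5. All tested loci entered the Benjamini-Hochberg adjustment, and a call is an adjusted p under 0.05. Each SE was obtained as coefficient over root F. For STAR and CYP11A1, the model held the group and log2 CPM of that gene (prior count 2). Correlations used exact permutation within a group (720 orders) and 100000 resamples over 12 ovaries, two-sided. Each library is a separate gilt. Each ES gilt had a full sister in NES, but the labels do not say that equal numbers mark sisters. Coordinates are those of the deposited table.

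The members and lists were chosen with earlier results of these data known. In full, with levels, are given for each role up to 5 members with the smallest p, with INSIG1, SCARB1, STARD4, SOAT1, SREBF2, STAR and CYP11A1. Of the other pathway genes, the called ones and the 4 with the smallest p are named; some listed genes are not reported here. IDI1 and MSMO1 were added after their values were seen. Marker lists of lymphocytes, epithelium, endothelium, smooth muscle, oocytes, adipocytes and red cells were summed as well as those of macrophages, granulosa, theca and luteal cells.

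Alternatives were DESeq2, limma on log2(FPKM + 0.1, 0.5 or 1), RLE and upper-quartile factors, a mean FPKM of at least 1, no filter, a block for the title number, each library left out and slopes without the group. The fits without ES1 and ES6, robust edgeR, edgeR without the legacy option and the joint slopes were added after the data were seen. Simulated data were first put through edgeR's comparison of ES with NES, an edgeR slope fit, DESeq2 and limma, but not through the other alternatives. Software was R 4.3.3 with DESeq2 1.42.0, limma 3.58.1 and edgeR 4.0.16, and Python 3.11.15 with scipy 1.17.1, matplotlib 3.10.9, numpy 2.4.6 and pandas 2.3.3.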

Additional observations from a re-analysis of the deposited data

Results flagged for a closer look

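Among 48 groups of 6 ovaries, the 22 members, STAR and CYP11A1 in ES and in NES, 6 held an ovary whose log2 CPM stood far from the other 5 by Dixon's ratio, where chance gives about 1 in 20. In ES3, NPC2 had 144 CPM, against 35.1 to 51.2 CPM in the other ES ovaries. TSPO in ES3 had 36.8 CPM, against 11.2 to 15.3 CPM, and the LIPA row in ES3 had 1.75 CPM, against 0.346 to 0.455 CPM. ES3 was also the ovary with the highest summed macrophage markers, and the part of these in its values was not tested. DHCR7 in ES1 had 76.4 CPM, against 12.0 to 23.3 CPM in the other ES ovaries. Among NES ovaries, CYP51A1 in NES1 had 32.1 CPM, against 14.9 to 19.0 CPM, and SCARB1 in NES1 had 304 CPM, against 193 to 227 CPM in the others.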

How the results depend on the processing

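The number of members called between ES and NES was 0 in every fit. The number of loci called, 193 in the test reported, was 1065 with DESeq2, 334, 337 and 319 with limma on log2(FPKM + 0.1), log2(FPKM + 0.5) and log2(FPKM + 1), 28 with no filter, 0 with the replicate block, 295 with upper-quartile factors, 100 without ES1 and ES6, and 0 to 415 with 1 library left out. The median log2 difference of uptake and handling members was 0.32, 0.31 and 0.29 with limma, 0.40 with the replicate block, 0.14 without ES1 and ES6 and 0.19 to 0.83 with 1 library left out. Members with a called slope on STAR numbered 4 with CYP11A1 also in the model, where 6.75% of all loci passed. With 1 library left out they numbered 0 (without ES3, 0.0392% of loci) to 6 (without ES4, 7.02% of loci). On CYP11A1 they numbered 0 to 4 with 1 library left out, and the 0 was without ES1, where no locus passed. With the replicate block they numbered 0 on either gene, and none of all tested loci passed there, so it does not set the members apart. With no group term they numbered 1 on STAR and 5 on CYP11A1, for which the share of all loci is not given here. Whether the numbers act as pairs was not tested. Same-numbered ovaries deviated together with r between -0.028 and 0.24, with 2 of 6 over 0.1. Of the ES ovaries, 3 of 6 matched their own number best. The labels do not say that equal numbers mark sisters, so the block is given as an alternative only.

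Single log2 differences kept their direction in 854 of the alternatives, with no change of call, turned in 71 and became called in 10. None of the 10 belonged to a member. They were 6 values of OSBPL8, 2 of STAR, 1 of OSBPL2 and 1 of CYP11A1. DESeq2, which called 5.22% of all loci, called STAR at 2.88 and CYP11A1 at 2.79. With limma at pseudocounts 0.1, 0.5 and 1 the turned values were -0.028, -0.022 and -0.017 for ACAT1, -0.20, -0.12 and -0.085 for EBP, -0.014, -0.0056 and -9.83e-04 for MVK, -0.033, -0.025 and -0.018 for MYLIP, -0.12, -0.097 and -0.076 for PMVK, -0.049, -0.048 and -0.047 for SREBF1, and -0.066, -0.055 and -0.046 for SREBF2. Without ES1 and ES6 they were -0.022 for CYP51A1, -0.36 for DHCR7, -0.51 for EBP, -0.16 for FDFT1, -0.0013 for IDI1, -0.21 for MVK, 4.91e-04 for NCEH1, -0.021 for NSDHL, -0.29 for PMVK, -0.11 for SCAP, -0.31 for SQLE, -0.014 for SREBF1, -0.18 for SREBF2 and -0.39 for STARD4. The replicate block gave -0.12 for EBP and -0.040 for PMVK, and upper-quartile factors -0.037 for EBP, -0.032 for PMVK and -0.041 for SREBF1. SREBF1 also had -9.15e-04 with DESeq2, -9.26e-04 with RLE factors, -2.44e-07 without the legacy option and -0.0057 with no filter. With 1 library left out the ranges that crossed 0 were -0.085 to 0.011 for ACAT2, -0.22 to 0.61 for DHCR7, -0.36 to 0.16 for EBP, -0.026 to 0.44 for FDFT1, -0.035 to 0.25 for MVK, -0.13 to 0.23 for MYLIP, -0.018 to 0.27 for NSDHL, -0.12 to 0.094 for PMVK, -0.094 to 0.61 for SQLE, -0.11 to 0.19 for SREBF1, -0.052 to 0.28 for SREBF2 and -0.011 to 1.13 for STARD4.

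Slopes turned in 12 values on STAR and 18 on CYP11A1. With no group term GGPS1 had 0.036 on CYP11A1 and 0.018 on STAR, and the LIPA row 0.22 on CYP11A1. With both genes in the model INSIG1 (-0.0020), NPC1 (-0.047) and SOAT1 (-0.15) turned on STAR, and LIPA (0.13), NCEH1 (0.090) and SCAP (-0.013) on CYP11A1. Under the replicate block NPC1 (-0.0046) and SOAT1 (-0.054) turned on STAR, and LIPA (0.23) and SCAP (-0.040) on CYP11A1. With 1 library left out the ranges on STAR were -0.048 to 0.013 for GGPS1, -0.27 to 0.028 for NCEH1, -0.034 to 0.41 for NPC1, -0.15 to 0.50 for SOAT1, -0.095 to 0.027 for STARD3 and -0.23 to 0.091 for TSPO. On CYP11A1 they were -0.13 to 0.049 for ACAT1, -0.044 to 0.54 for DHCR7, -0.025 to 0.077 for GGPS1, -0.25 to 0.38 for LIPA, -0.15 to 0.31 for NCEH1, -0.072 to 0.53 for NPC2, -0.12 to 0.18 for NSDHL and -0.038 to 0.34 for TSPO. The cause of these turns was not tested.

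Members other than the LIPA row averaged at least 243.5 counts per library (PMVK), and the LIPA row 30.2, so counting error weighs most there.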

Other observations

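The remaining marker lists were also summed in each ovary. Epithelial markers (7 measured) summed to 248 CPM in ES6 and to 10.2 to 17.6 CPM in the other ES ovaries, with 3.63 to 18.3 CPM in NES. Smooth muscle markers (5 measured) summed to 559.9 to 1945 CPM in ES, highest in ES1, and to 307 to 1208 CPM in NES. Endothelial markers (5 measured) summed to 145 to 242 CPM in ES and 99.4 to 218 CPM in NES, lymphocyte markers (7 measured) to 8.62 to 27.0 CPM in ES and 7.60 to 13.1 CPM in NES, and oocyte markers (5 measured) to 3.94 to 17.2 CPM in ES and 7.46 to 16.4 CPM in NES. Adipocyte markers (4 measured) reached 5.02 CPM in ES3, with at most 0.651 CPM in any other ovary, and the 2 measured red cell markers 5.62 CPM in ES1, with at most 3.18 CPM elsewhere. Some markers were at 0 in at least 1 library, among them CD4, CLDN4, KRT18, FOXJ1, FIGLA, HBB and the 4 adipocyte genes.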
